A study of Mus musculus with 12 samples.

Results

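The 10 genes described here encode the inducible catalytic subunits of the immunoproteasome, the constitutive subunits they replace, activator subunits and an assembly chaperone. They were taken from the 43629 rows of the deposited gene table by matching Ensembl identifiers to symbols in the GENCODE M21 annotation of build GRCm38, and each symbol matched 1 row. The inducible catalytic subunits are Psmb8, Psmb9 and Psmb10, and their constitutive counterparts at the same positions of the particle are Psmb5, Psmb6 and Psmb7. Psme1, Psme2 and Psme3 encode activator subunits, and Pomp encodes an assembly chaperone.

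The 20S proteasome is a hollow cylinder of stacked rings that degrades proteins, and 3 of the beta subunits in each inner ring carry the active sites. Interferon-gamma is known to induce the inducible subunits, which are built into newly assembled particles in place of the constitutive ones and change the peptides that are released. Psme1 and Psme2 form the PA28 alpha-beta cap, which opens the cylinder and is also known as an interferon-gamma target, whereas Psme3 forms the nuclear PA28 gamma cap. In the brain, immunoproteasomes are best known from glia and from inflamed tissue, and the title of the series places them in neurons and their metabolism.

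Poly(A) RNA was sequenced from 12 mouse (Mus musculus) cortical neuronal cultures, 6 labelled Control and 6 labelled IFNy, called IFNG below. Per the labels, neuronal cultures received a lentivirus overexpressing Ifng at 7 days in vitro and were collected 10 days later, and the series' text describes the exposure to interferon-gamma as continuous. That protocol stands on all 12 samples, so what the Control cultures were transduced with, if anything, is not given, and neither are the strain or age of the mice or the promoter of the construct. No label names separate cultures or mice for the libraries of a group, so the spread behind each p-value is that of these libraries and may be technical.

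Library totals ran from 14408343 to 20299507 counts in Control and from 13875435 to 34239380 in IFNG. Ifng had 0 to 3 counts in a Control library and 4.98, 11.5 and 17.9 CPM (lowest, median and highest; counts scaled to a common library size) in the IFNG libraries, so every library matched its label. All 8 neuronal markers were detected, at a summed 5035 to 5645 CPM in Control and 3793 to 4849 CPM in IFNG libraries, and 4 of the 8 were lower in edgeR, or 2 when Control 4, Control 5, IFNG 2 or IFNG 6 was left out. The cultures also held astrocyte transcripts, at a summed 2084 to 2292 CPM in Control and 4119 to 6672 CPM in IFNG, and 9 of the 9 astrocyte markers tested were higher. Among all genes tested, 9.79% were lower and 14.3% higher. In bulk RNA, fewer cells of a type and less RNA per cell cannot be told apart, and neither can the share of each gene's transcripts that came from neurons and from astrocytes.

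Of the 10 members, 9 matched a promoter in the RefSeq table (build GRCm38.p6, 250 bases before to 50 bases after the start of the gene), and Psmb7 did not. These were searched on both strands for 3 motifs: TTCNNNGAA, the gamma-activated site; the core of the interferon-stimulated response element (ISRE) bound by IRF factors, which is GAAA, any 2 bases and GAAA again; and TGACNNNGC, the core of the antioxidant response element, which is known from the promoters of standard proteasome genes. The motifs were present in 8.30%, 3.44% and 12.4% of the 32851 promoters in the table. All 4 matches among the members are shown, with 30 bases each and the motif in capitals, because they fall on genes of 3 roles.
Psmb8, TTCNNNGAA, chr17:34198088-34198117, plus strand: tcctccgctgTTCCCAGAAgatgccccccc
Psme1, ISRE core on the other strand, chr14:55578493-55578522, plus strand: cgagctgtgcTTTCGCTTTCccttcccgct
Psmb5, TGACNNNGC, chr14:54618023-54618052, minus strand: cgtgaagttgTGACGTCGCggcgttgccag
Psmb6, TGACNNNGC, chr11:70525338-70525367, plus strand: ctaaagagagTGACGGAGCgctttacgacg
The motif began 97 bases before the RefSeq start in Psmb8, 47 before it in Psmb5 and 9 before it in Psmb6, and at base 10 after it in Psme1. The GENCODE M21 starts of Psmb8 and Psme1 differ from these, at 34197721 and 55578123, and by them both windows lie inside the gene. The match in Psmb8, an inducible gene, is to the gamma-activated site, the match in the activator gene Psme1 is to the IRF motif, and both matches in constitutive genes are to the antioxidant motif. A match is a description of the letters and not a binding site. The other 5 members with a promoter, Psmb9, Psmb10, Psme2, Psme3 and Pomp, held none of these letters within the window. The matches are few beside the shares over all promoters, so no pattern by role is read from them.

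All 3 inducible genes rose in IFNG libraries, by 319-fold, 286-fold and 9.42-fold, while none of the 3 constitutive genes passed the test. Psme1 and Psme2 rose by 4.95-fold and 5.37-fold, and Psme3 did not pass. Pomp rose by 1.41-fold. In total 6 of the 10 members were higher and 0 lower by edgeR's quasi-likelihood test at an adjusted p of 0.05, where 24.1% of the 15241 genes tested were called, 14.3% higher and 9.79% lower. The same 6 had every IFNG library above every Control library, as did 8.75% of genes tested, and none had every IFNG library below, as did 4.09%. All fold changes below are from that fit, with the standard error (SE) on the log2 scale and Benjamini-Hochberg adjustment over all genes tested.

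**Figure D1:**
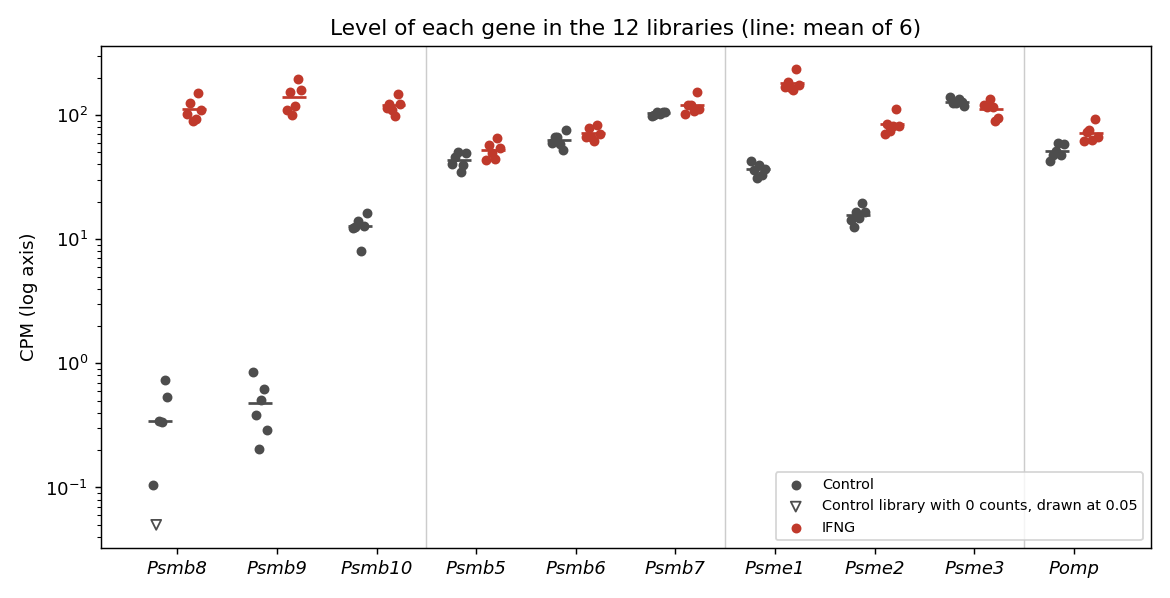
Level of each of the 10 genes in CPM on a log axis, 1 point per library and a line at the mean of each group of 6, with a Control library at 0 counts drawn as an open triangle at 0.05. Psmb8 and Psmb9 lie below 1 CPM in all 6 Control libraries and above 90 CPM in all 6 IFNG libraries, while the points of Psmb5, Psmb6, Psmb7 and Psme3 overlap.

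Psmb8 (ENSMUSG00000024338, GRCm38 chromosome 17, 34197721 to 34201454, plus strand) encodes the inducible chymotrypsin-like subunit, also called LMP7. Its level was 0, 0.340 and 0.735 CPM (lowest, median and highest) in Control and 90.1, 106 and 150 CPM in IFNG libraries. The 6 Control libraries together held 37 counts of it, 1 of them (Control 2) held 0, which at a floor of 3 counts allows up to 0.164 CPM, and the 6 IFNG libraries held 14335. The groups stood far apart, and the change was 8.32 ± 0.28 (log2, SE; 95% interval 7.73 to 8.91; adjusted p = 8.43e-15, edgeR).

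Psmb9 (ENSMUSG00000096727, chromosome 17, 34181987 to 34187764, minus strand) encodes the inducible caspase-like position, also called LMP2, and lies close to Psmb8 in the major histocompatibility region. Its level was 0.205, 0.446 and 0.845 CPM in Control and 100.3, 136 and 194 CPM in IFNG libraries, from 52 and 18005 counts. No library of one group came near the other, and the change was 8.16 ± 0.24 (SE; interval 7.65 to 8.67; adjusted p = 1.44e-15, edgeR). Psmb9 shares 12.5% of the 50-base windows of its principal transcript with Tap1 on the opposite strand, and Tap1, a peptide transporter gene, went from 6.83 to 618 CPM. Without the strand setting of the count, reads of that stretch cannot be assigned to either gene.

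Psmb10 (ENSMUSG00000031897, chromosome 8, 105935735 to 105938444, minus strand) encodes the inducible trypsin-like subunit, also called MECL-1, and differed from the other inducible genes in its Control level. It stood at 8.08, 12.6 and 16.3 CPM in Control and at 97.7, 118 and 148 CPM in IFNG libraries. Control thus held 1371 counts, against 37 of Psmb8 and 52 of Psmb9. The lowest IFNG library was above the highest Control library, and the change was 3.24 ± 0.14 (SE; interval 2.94 to 3.53; adjusted p = 3.46e-13, edgeR).

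None of the 3 constitutive subunits passed the test, and the upper ends of their intervals lay between 1.31-fold and 1.43-fold. Psmb5 (ENSMUSG00000022193, chromosome 14, 54614119 to 54618022, minus strand), the counterpart of Psmb8, stood at 34.9, 43.4 and 50.2 CPM in Control and 43.7, 51.8 and 65.5 CPM in IFNG. Of the 6 IFNG libraries 3 were above all Control libraries, and the change was 0.27 ± 0.12 (SE; interval of the fold 1.01 to 1.43; adjusted p = 0.110, edgeR). Psmb6 (ENSMUSG00000018286, chromosome 11, 70525367 to 70527858, plus strand), the counterpart of Psmb9, stood at 52.4, 62.7 and 75.1 CPM in Control and 62.2, 68.4 and 82.3 CPM in IFNG. Only 2 of its IFNG libraries were above all Control libraries, and the change was 0.17 ± 0.10 (SE; interval of the fold 0.974 to 1.31; adjusted p = 0.234, edgeR).

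Psmb7 (ENSMUSG00000026750, chromosome 2, 38588036 to 38644087, minus strand), the counterpart of Psmb10, was the tightest of the 10 in Control, at 98.9, 104 and 107 CPM, and stood at 102, 115 and 154 CPM in IFNG. Its coefficient of variation was 3.32% in Control and 15.6% in IFNG, 5 of 6 IFNG libraries were above all Control libraries, and the change was 0.21 ± 0.095 (SE; interval of the fold 1.01 to 1.33; adjusted p = 0.116, edgeR). Psmb7 shares 28.1% of its windows with Nek6, a kinase gene on the opposite strand, which rose by 0.98 ± 0.093 (SE; adjusted p = 9.80e-08, edgeR), from 47.9 to 94.4 CPM. The part of reads of Nek6 in the Psmb7 value was not tested. Psmb5 shares 57.1% of its windows with other genes. With Gm3375 alone it shares 49.4% of its windows, and no row of the gene table was matched to that symbol.

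Among the constitutive genes, Psmb5 and Psmb7 were called only under a scaling that left out genes chosen from these same data. With DESeq2 size factors, Psmb5, Psmb6 and Psmb7 had adjusted p-values of 0.109, 0.236 and 0.117 (edgeR). On library totals without a composition factor these were 0.178, 0.382 and 0.206. On library totals without the genes called higher, Psmb5 rose by 0.38 (adjusted p = 0.0274, edgeR) and Psmb7 by 0.33 (adjusted p = 0.0188), while Psmb6 stood at 0.29 (adjusted p = 0.0537). That scaling leaves out genes in the upward direction only, which by itself shifts estimates upward. It moved the median of all genes from -0.02 to 0.10 and the calls from 2184 higher and 1492 lower to 2961 higher and 752 lower. The 6 members called higher were called under every scaling tried.

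Psme1 (ENSMUSG00000022216, chromosome 14, 55578123 to 55581529, plus strand), the PA28 alpha gene, stood at 31.3, 36.4 and 42.9 CPM in Control and at 158, 172 and 236 CPM in IFNG libraries. Psme2 (ENSMUSG00000079197, chromosome 14, 55587441 to 55591113, minus strand), the PA28 beta gene, stood at 12.4, 15.7 and 19.6 CPM in Control and at 70.9, 81.8 and 112 CPM in IFNG. Neither gene's groups overlapped, and IFNG 5 was the highest library for both. The changes were 2.31 ± 0.11 for Psme1 (SE; interval 2.08 to 2.54; adjusted p = 1.50e-12, edgeR) and 2.43 ± 0.13 for Psme2 (interval 2.16 to 2.70; adjusted p = 8.63e-12). Psme1 shares 14.1% of its windows with other genes. With Gm7776 it shares 10.2% of its windows, and Gm7776 held 15 counts in all Control and 29 in all IFNG libraries.

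The products of the 2 genes assemble into 1 ring, and the ratio of their counts did not differ beyond the spread of libraries. There were 1.68, 2.42 and 3.03 counts of Psme1 per count of Psme2 in Control and 1.93, 2.15 and 2.38 in IFNG libraries. The difference was -0.12 on the log2 scale (exact two-sided permutation test, p = 0.444), and the libraries overlapped. The ratio varied less in IFNG, with a coefficient of variation of 6.84%, than in Control, with 23.2%; that difference was not tested.

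Psme2 has a near-identical copy, Psme2b, with which it shares 59.3% of its windows. Psme2b went from 1.24 ± 0.736 to 13.5 ± 2.29 CPM (SD, n = 6 each), a change of 3.43 ± 0.30 (SE; adjusted p = 2.32e-08, edgeR). It took 7.5% of the counts of both genes in Control and 14.1% in IFNG. How the authors' counting split reads between the 2 genes is not given, so the value of each is uncertain.

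Psme3 (ENSMUSG00000078652, chromosome 11, 101316213 to 101323537, plus strand), the PA28 gamma gene, was the 1 member with an estimate below 0. It stood at 118, 126 and 141 CPM in Control and at 89.2, 115 and 135 CPM in IFNG libraries, with IFNG 5 and IFNG 6 (94.4 CPM) lowest. The groups overlapped, and the change was -0.20 ± 0.099 (SE; interval of the fold 0.753 to 1.0; adjusted p = 0.157, edgeR). It shares no window with another gene.

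Pomp (ENSMUSG00000029649, chromosome 5, 147860461 to 147876456, plus strand) encodes the chaperone that guides assembly of the beta ring and is degraded by the finished particle. It stood at 42.6, 49.5 and 59.1 CPM in Control and at 61.4, 69.4 and 92.5 CPM in IFNG libraries. The lowest IFNG library was just above the highest Control library, and the change was 0.49 ± 0.11 (SE; interval 0.26 to 0.73; adjusted p = 0.0028, edgeR).

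Within each library, the ratio of inducible to constitutive counts does not depend on how libraries are scaled to each other. All 3 catalytic ratios and the ratio of Psme1 plus Psme2 to Psme3 were higher in every IFNG library than in every Control library. These are ratios of counts with 0.5 added to each and are not per length, so a ratio of 1 does not mean equal numbers of transcripts. Each of the 4 differences had an exact two-sided permutation p of 0.00216, the smallest that 6 against 6 libraries allow, and 0.00216 after Benjamini-Hochberg adjustment over the 4.

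The Psmb8 to Psmb5 ratio was 0.00059, 0.0090 and 0.0192 in Control (lowest, median and highest) and 1.82, 2.14 and 2.33 in IFNG libraries. Its difference was 8.55 on the log2 scale, with an SD over libraries of 1.81 in Control and 0.13 in IFNG. The wide Control spread goes with counts of Psmb8 from 0 to 13 in a library; without Control 2, the library at 0, the difference was 7.90.

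The Psmb9 to Psmb6 ratio was 0.0036, 0.0076 and 0.0147 in Control and 1.5, 1.92 and 2.36 in IFNG, a log2 difference of 8.03 (SD 0.83 and 0.25). The Psmb10 to Psmb7 ratio was 0.0790, 0.125 and 0.155 in Control and 0.909, 0.991 and 1.11 in IFNG, a log2 difference of 3.05 (SD 0.33 and 0.12). Control 4 gave the lowest Psmb10 to Psmb7 ratio, and the other 5 Control libraries lay between 0.119 and 0.155. The inducible genes also kept close to each other among IFNG libraries, with 1.08 to 1.45 counts of Psmb9 and 0.987 to 1.23 counts of Psmb10 per count of Psmb8.

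The (Psme1 plus Psme2) to Psme3 ratio was 0.386, 0.402 and 0.452 in Control and 1.77, 2.21 and 3.89 in IFNG, a log2 difference of 2.55 (SD 0.082 and 0.41). It was the only one of the 4 that varied more among IFNG than among Control libraries; the difference in spread was not tested. IFNG 5 was highest at 3.89 and IFNG 6 next at 2.71, the 2 libraries lowest in Psme3.

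**Figure D2:**
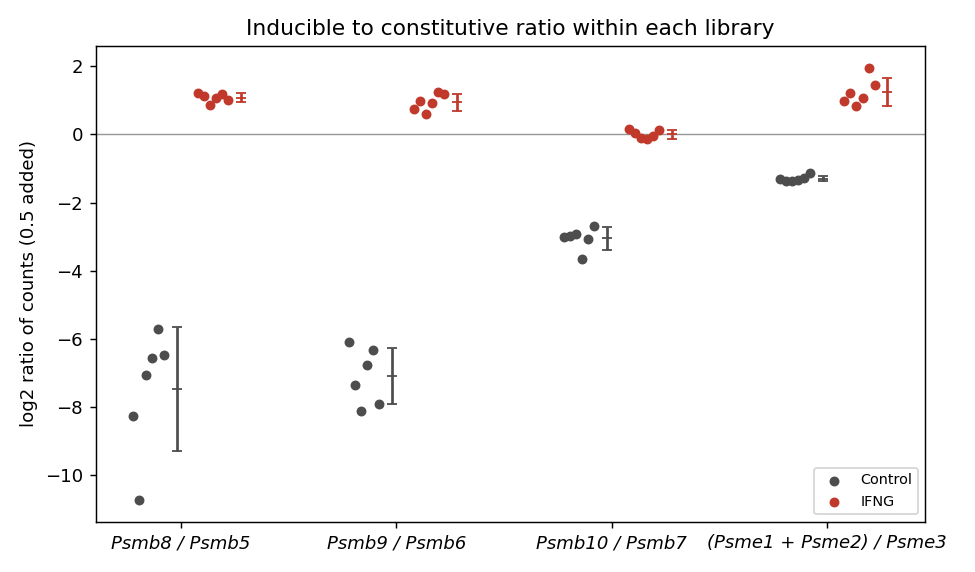
Log2 ratio of counts in each of the 12 libraries for the 3 catalytic pairs and for Psme1 plus Psme2 over Psme3, with bars for the mean and SD of 6 libraries per group and a line at equal counts. Control points spread over several log2 units for Psmb8 to Psmb5 and lie close together for the activators, and no IFNG point falls among the Control points.

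The catalytic positions differed in the size of the shift. The log2 change of the Psmb8 to Psmb5 ratio exceeded that of Psmb10 to Psmb7 by 5.49, and the change of Psmb9 to Psmb6 exceeded it by 4.98 (exact two-sided permutation tests, p = 0.00216 each, 0.0032 after adjustment over 3 comparisons). Psmb8 to Psmb5 and Psmb9 to Psmb6 differed by 0.52, which is within the spread of Control libraries (exact permutation p = 0.524), and by -0.08 without Control 2. The Psmb10 position also had the highest median ratio in Control, 0.125, whereas the IFNG medians of the 3 ratios lay between 0.991 and 2.14.

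Divided by length, the counts give the inducible gene's share of the transcripts of each pair. This is a share of RNA in bulk cultures, and the subunits in assembled particles were not measured. With lengths from the union of a gene's exons, Psmb8 made up 0.214 ± 0.174% of Psmb8 plus Psmb5 in the Control libraries and 36.0 ± 2.07% in the IFNG libraries (SD over 6 libraries, here and below). Psmb9 made up 0.403 ± 0.228% and 49.5 ± 4.39% of its pair. Psmb10 made up 19.6 ± 3.31% and 66.7 ± 1.90%. At all 3 positions every IFNG library had a higher share than every Control library, and the constitutive gene kept a large part of each pair.

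These shares rest on which transcript length is used, since the union counts retained introns. With the length of the principal transcript, an option chosen after seeing the data, the IFNG shares were 53.9 ± 2.26% for Psmb8, 53.0 ± 4.38% for Psmb9 and 47.0 ± 2.13% for Psmb10. The order of the 3 positions in IFNG therefore differs between the length choices and cannot be read from these files. In Control the order did not turn on it in one respect: Psmb10 had the highest share, at 9.76 ± 1.82% with the principal length against 0.443 ± 0.360% for Psmb8 and 0.465 ± 0.263% for Psmb9. Length is not the only limit, since some windows are shared with other genes. These were 57.1% of the windows of Psmb5, 28.1% of Psmb7, 12.5% of Psmb9, 5.83% of Psmb8, 2.67% of Psmb6 and 0% of Psmb10. Their effect on the shares was not tested.

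**Figure D3:**
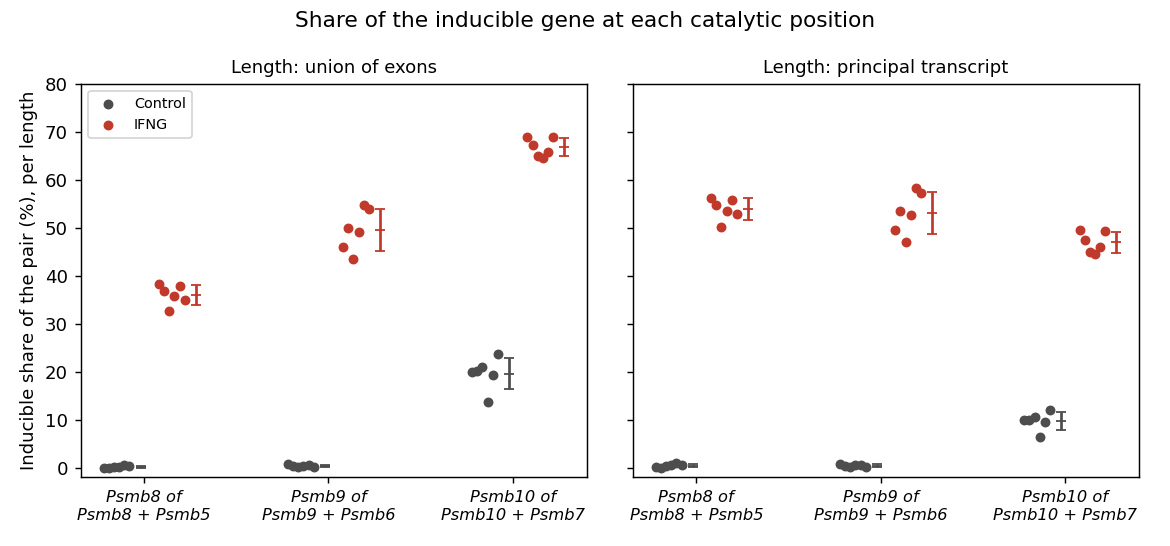
Share of the inducible gene in the summed CPM per kilobase of its pair, in percent, 1 point per library with mean and SD of 6 libraries per group, with the union of exons on the left and the principal transcript on the right. Psmb8 and Psmb9 shares lie near 0 in Control in both panels, Psmb10 starts higher, and in IFNG the order of the 3 positions changes between the panels.

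The sum of both genes of a position also rose at all 3 positions. The sum per kilobase of exon union went from 48.5 ± 6.81 to 91.2 ± 15.7 CPM per kilobase for Psmb8 plus Psmb5, from 33.8 ± 4.18 to 76.0 ± 13.7 for Psmb9 plus Psmb6, and from 37.5 ± 2.14 to 105 ± 14.9 for Psmb10 plus Psmb7 (SD, n = 6 each). The folds were 1.87, 2.23 and 2.77, with no overlap of groups at any position (exact two-sided permutation p = 0.00216 each, the same after adjustment over 3). With the principal length the folds were 2.59, 2.4 and 1.95, so each sum rose under either length while their order did not hold.

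In levels per kilobase of exon union, Psmb5 led the 10 genes in Control, at 48.4 ± 6.81 CPM per kilobase, followed by Psme3 (43.5), Psmb6 (33.7) and Psmb7 (30.1), each overlapping its neighbour in this order. Psme1 (16.5), Pomp (9.79), Psme2 (8.89) and Psmb10 (7.42) came next, where Psme1 overlapped neither neighbour, with Psmb9 (0.130) and Psmb8 (0.101) far below and overlapping each other. In IFNG libraries Psme1 led at 82.0 ± 12.8, followed by Psmb10 (69.9), Psmb5 (58.2), Psme2 (47.7), Psmb9 (38.03), Psmb6 (37.96), Psme3 (37.9), Psmb7 (34.9) and Psmb8 (33.0), each overlapping the next, with Pomp last at 13.8. With the principal length Psmb7 led in Control at 88.8 CPM per kilobase, and Psme1 led in IFNG at 163. Under both lengths Psmb8 and Psmb9 stood last in Control and within the range of the other genes in IFNG.

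A second reference was the set of 11 subunits of the 20S particle that standard and immunoproteasomes share, Psma1 to Psma7 and Psmb1 to Psmb4. Their mean log2 CPM was itself higher in IFNG, at 6.48, 6.58 and 6.86 against 6.22, 6.27 and 6.58 in Control, a difference of 0.30 (exact two-sided permutation p = 0.0087). The groups touched because Control 4 stood apart from the other Control libraries at 6.58. Each member was therefore also expressed relative to this mean in its own library, with exact permutation p-values adjusted over the 10 members.

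On that scale none of the constitutive subunits passed, and their estimates were below 0. Psmb5 differed by -0.04 (exact permutation p = 0.810), Psmb6 by -0.13 (p = 0.346) and Psmb7 by -0.10 (p = 0.186), and all 3 overlapped between groups. Psme3 was lower in every IFNG library than in every Control library, by -0.51 (exact permutation p = 0.00216, adjusted 0.0036), the 1 member whose call differed from that on the CPM scale in this direction. Pomp was higher by 0.19 without passing (exact permutation p = 0.0541, adjusted 0.0773), although it passed without Control 6, at 0.25 (adjusted p = 0.0124).

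The inducible genes and both PA28 genes stood out from the shared subunits by nearly as much as on the CPM scale. The differences were 7.94 for Psmb8, 7.67 for Psmb9, 2.94 for Psmb10, 2.0 for Psme1 and 2.11 for Psme2 (exact permutation p = 0.00216 and adjusted 0.0036 for each). None of the 5 overlapped between groups.

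**Figure D4:**
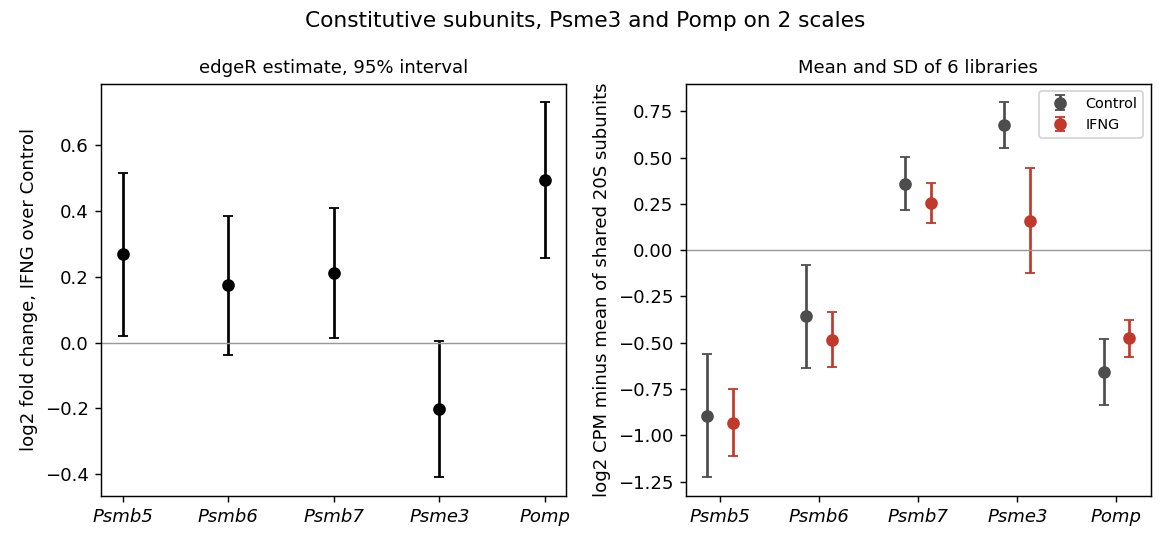
Left, log2 fold change of IFNG over Control from edgeR with its 95% interval for Psmb5, Psmb6, Psmb7, Psme3 and Pomp. Right, log2 CPM of the same genes minus the mean of the 11 shared 20S subunits, mean and SD of 6 libraries per group; Psme3 is lower in IFNG by 0.51, the 3 constitutive subunits differ by 0.13 or less, and Pomp differs by 0.19.

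Among the other genes of the particle, rises were small beside those of the inducible genes. Of the 11 shared 20S subunits 7 were higher and 0 lower, with a median log2 change of 0.32 against -0.02 for all genes tested, of which 14.3% were higher. Psmb2, which encodes a beta subunit without catalytic activity, rose by 0.61 ± 0.10 (SE; adjusted p = 1.33e-04, edgeR), from 52.4 ± 5.91 to 80.1 ± 10.2 CPM (SD, n = 6 each), with no overlap. Psma5, an alpha ring subunit, rose by 0.42 ± 0.099 (adjusted p = 0.0035), and Psma3, the most abundant in counts that did not pass, stood at 0.16 ± 0.11 (adjusted p = 0.339).

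Of 19 subunits of the 19S cap, which recognises and unfolds ubiquitin-tagged proteins, 5 were higher and 0 lower, with a median of 0.15, where 14.3% of all genes tested were higher and 9.79% lower. The ubiquitin receptor gene Psmd4 rose by 0.37 ± 0.087 (SE; adjusted p = 0.0036, edgeR) and the ATPase gene Psmc3 by 0.30 ± 0.092 (adjusted p = 0.0217). Psmc5, Psmd3 and Psmd7 rose by 0.25, 0.27 and 0.27, and the abundant Psmd2 stood at 0.13 ± 0.078 (adjusted p = 0.261). This count was not stable and is not read as a change of the cap: it was 1 without Control 2, 2 without Control 5 or IFNG 2, 3 without Control 1 or IFNG 3, 1 on library totals without a composition factor, and 11 on totals without the genes called higher. No 19S subunit was lower in any of these fits.

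Of 7 assembly chaperones tested, Pomp apart, 1 was higher and 0 lower, no more than the 14.3% of all genes called higher. That gene, Psmg4, rose by 0.81 ± 0.15 (SE; adjusted p = 4.84e-04, edgeR), from 6.26 ± 0.932 to 11 ± 1.31 CPM (SD, n = 6 each), while Psmd5 stood at 0.21 ± 0.11 (adjusted p = 0.158) and the median of the 7 was 0.04. Psmg4 encodes a chaperone of alpha ring assembly, and a second assembly gene passed on totals without the genes called higher. Of 5 other regulators of the particle 1 was higher and 0 lower, against the same 14.3%. Psmf1, the gene of the inhibitor PI31, was higher by 0.32 ± 0.097 (adjusted p = 0.0194), a call lost without IFNG 2. Usp14, a deubiquitinase of the 19S cap, stood at -0.16 ± 0.11 (adjusted p = 0.330). The tissue-restricted subunits Psmb11, of the thymus, and Psma8, of the testis, were too low to test, at 0.0836 and 0.0273 CPM in Control and 0.0286 and 0 CPM in IFNG.

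Of 8 transcription factors of proteasome genes and enzymes that process such factors, 6 were higher and 0 lower. Their median was 1.5, and 14.3% of all genes tested were higher. Nlrc5, the transactivator of class I antigen presentation genes, rose by 7.67 ± 0.32 (SE; adjusted p = 1.47e-13, edgeR), from 1.57 ± 1.03 to 324 ± 67.4 CPM (SD, n = 6 each). Nfe2l1, the factor that raises standard proteasome genes when proteasome activity falls short, stood at 0.14 ± 0.093 (adjusted p = 0.308). The related Nfe2l2, named after its value was seen, rose by 1.47 ± 0.13 (adjusted p = 4.38e-08), from 20.8 ± 2.78 to 57.7 ± 11.7 CPM.

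Summed over each list, markers of other cell types were low beside those of neurons and astrocytes. Single genes were not all low: in Control, the oligodendrocyte lineage genes Olig1 and Olig2 had means of 127 and 80.8 CPM. Single astrocyte markers had Control means from 0.508 (S100b) to 774 CPM (Slc1a3). Microglia and macrophage markers, 10 genes, summed to 9.01 to 17.6 CPM in Control and 14.4 to 22.4 CPM in IFNG, with 1 of 3 tested higher, and Cx3cr1, Tmem119 and C1qb were below 1 CPM in all 12 libraries. The 8 oligodendrocyte lineage markers summed to 283.2 to 391.98 and 248 to 286 CPM, with 2 lower, and the 7 fibroblast and mural markers to 29.7 to 47.8 and 46.9 to 56.3 CPM, with 1 of 4 tested higher. Among all genes tested, 14.3% were higher and 9.79% lower. These few calls are not read as a change of any of these cell types. The 6 endothelial markers summed to at most 3.11 CPM, with Cldn5 at 0 throughout, and the 5 lymphocyte markers to at most 3.05 CPM. The part of any of these cell types, astrocytes included, in the level of the 10 genes was not tested.

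After centring each group, Psmb5 correlated over the 12 libraries with Psmb6 (Pearson r = 0.85) and with Psmb10 (r = 0.85), and Psmb7 with Pomp (r = 0.80). They were picked as the highest among all pairs of members, and the lowest was -0.66, between Psmb5 and Psme3. These values describe 12 libraries that also share depth and composition. No such value is given for Psmb8 or Psmb9, whose Control levels rest on 0 to 16 counts a library. Among the IFNG libraries, IFNG 3 was lowest and IFNG 5 highest for both of these genes. IFNG 5 was the highest IFNG library for 9 of the 10 members and the lowest for the other, Psme3, whereas no Control library was highest for more than 3. Without IFNG 5, as without any other single library, 6 members were higher and 0 lower.

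By the same measure over 10568 genes whose mean log2 CPM was 3 or more, the genes most like the mean of Psmb5, Psmb6 and Psmb7 were Fis1 (r = 0.97), Pebp1 (0.96), Usf2 (0.96), Mtch1 (0.95) and Rpl11 (0.94). They are the 5 highest of many genes over 12 libraries and are given as a description. None of the 5 passed the test between groups. The genes most like the mean of Psmb8, Psmb9 and Psmb10 are not described, since that mean follows the few Control counts of Psmb8 and Psmb9.

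Whether IFNG libraries with more Ifng transcript held higher ratios was asked over the 6 of them. For Psmb9 to Psmb6, Pearson's r with log2 Ifng CPM was 0.88 (exact permutation p = 0.0222, adjusted over 3 relations 0.0667) and Spearman's rho 0.83 (exact p = 0.0583, adjusted 0.175). Without IFNG 3 and IFNG 5, the libraries farthest from the median Ifng level, r was 0.56 over 4 libraries. For Psmb8 to Psmb5, r was 0.65 (exact permutation p = 0.161, adjusted 0.242) and rho 0.43 (p = 0.419, adjusted 0.629), and r turned to -0.67 without those libraries. For Psmb10 to Psmb7, r was 0.0033 (exact permutation p = 0.993, adjusted 0.993) and rho -0.14 (p = 0.803, adjusted 0.803), and r was -0.67 without them. None of the 3 relations passed after adjustment, and the first 2 rest in part on IFNG 3 and IFNG 5.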

How the data were processed

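Counts of reads per gene, whole numbers and not normalized, were deposited by the authors for 43629 Ensembl identifiers in 12 libraries. STAR 2.4, DESeq2 and the builds GRCm39 and mm10 are named, per the submitters' processing notes, without their roles. The annotation, read counter and strand setting behind the counts were not given in the sources used here. GENCODE M21 (GRCm38) gave symbols and coordinates for 42548 identifiers; the counting may have used another annotation. The members and gene lists were chosen with earlier results of these data known.

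IFNG was compared with Control on TMM-scaled libraries in edgeR 4.0.16, run in R 4.3.3, with filterByExpr, the two-sided quasi-likelihood F-test and Benjamini-Hochberg adjustment at 0.05, tested on simulated data first. CPM values use TMM-scaled totals. Ratios, shares and differences from the shared 20S subunits (log2 CPM, prior count 2) were computed in each library and compared by exact permutation over 924 arrangements (Python 3.11.15). A chi-square comparison of the 30 pairs of libraries within groups gave at least 7.40 per gene, so all 12 were kept as separate samples. Shared sequence was counted in 50-base windows of the principal transcript. Floors of 3 counts cover counting error only.

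Named genes were the members, Ifng, of each list up to 2 called genes with the largest change and the most abundant one not called, and the 5 genes most like each catalytic trio (those of the inducible trio are not described); others were named after their values were seen. The result of 1 gene under this rule is not reported here; it stays in the tests and counts. Alternatives were DESeq2 size factors, totals without a composition factor or without the genes called higher, other filters, the replicate number as a block, DESeq2 1.42.0, limma-voom (limma 3.58.1), other pseudocounts and lengths, and each library left out.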

Additional observations from a re-analysis of the deposited data

Results flagged for a closer look

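Dixon's criterion for a sample far from the rest of its group was met in 4 of 54 groups of 6 checked, where chance flags about 1 in 20 groups. IFNG 5 stood apart in 3 of them. Its Psmb7 level was 154 CPM, with the next IFNG library at 121 and the lowest at 102. Its Psme1 level was 236 CPM, with the next at 184 and the lowest at 158. Its Psme2 level was 112 CPM, with the next at 85.2 and the lowest at 70.9. In the fourth, Psmb10 relative to the shared 20S subunits was -3.55 in Control 4 on the log2 scale, with the next Control library at -2.69 and the highest at -2.19.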

How the results depend on the processing

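The 4 count ratios, the pair totals and the 6 members called higher kept direction and call under every alternative run. Leaving out 1 library at a time, log2 differences ranged from 7.90 to 8.90 for Psmb8 to Psmb5, 7.82 to 8.23 for Psmb9 to Psmb6, 2.93 to 3.13 for Psmb10 to Psmb7 and 2.4 to 2.63 for the activators, and calls over all genes from 1924 to 2332 higher and 1047 to 1699 lower. On totals without the genes called higher, 752 genes were lower, the median of all genes was 0.10, and Psmb5 (0.38) and Psmb7 (0.33) passed, making 8 members higher. DESeq2 gave 2352 higher and 1736 lower, and limma-voom 2189 and 1621. The Psmb8 to Psmb5 change against that of Psmb9 to Psmb6 ranged from -0.082 to 0.88 when a library was left out, negative only without Control 2. Relative to the shared 20S subunits, the leave-one-out range was -0.15 to 0.022 for Psmb5 (above 0 without Control 3, Control 6 or IFNG 3), -0.16 to -0.076 for Psmb7 (passing without Control 4, adjusted p = 0.0495, exact permutation) and 0.15 to 0.25 for Pomp (passing without Control 6); with the median of those subunits as reference Pomp passed at 0.20 (adjusted p = 0.0464, exact permutation). Mean IFNG shares moved to 49.95% for Psmb8 and 39.1% for Psmb9 with the longest transcript, and to 53.9% for Psmb8 and 47.0% for Psmb10 with the principal transcript. Pearson's r with Ifng turned to -0.67 for Psmb8 to Psmb5 and to -0.67 for Psmb10 to Psmb7 without IFNG 3 and IFNG 5. The cause of these changes was not tested. Libraries share replicate numbers between groups, but same-numbered libraries did not deviate together in every pair (correlations from -0.00096 to 0.124), and 2 of 6 Control libraries correlated best with their own number. With the replicate number as a block, edgeR called 2114 genes higher and 1563 lower, with 6 members higher. In the blocked comparison with the shared 20S subunits, Psmb8 (7.94), Psmb9 (7.67), Psmb10 (2.94), Psme1 (2.0), Psme2 (2.11) and Psme3 (-0.51) kept their values but had an adjusted p of 0.0521 (exact sign-flip permutation), the lowest that 64 sign flips gave after adjustment over 10. Depth limits mainly Psmb8 and Psmb9 in Control, at 37 and 52 counts in all.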
